A study of Mus musculus with 20 samples.

Results

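The apolipoprotein L genes described here are Apol7a, Apol9a, and Apol9b, followed in the proximal colon (PC) of mice fed different amounts of raw potato starch. The 3 genes were chosen by name with diet results of these same read counts already known, so the diet differences of Apol7a below are a description and carry no test. Of the 3, Apol7a had counts that could be used, and Apol9a and Apol9b were not analysed here. Apol7a was 1 of 12701 genes in the table, and 4 of 11 other listed relatives (Apol6, Apol7c, Apol10a, and Apol10b) could be set beside it.

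RNA was sequenced from the PC of 20 C57BL/6 mice. All of the mice entered the study at 3 weeks of age and ate the Total Western Diet (TWD), a rodent feed modelled on human nutrient intake, for 6 weeks. For another 3 weeks, 5 mice stayed on the TWD alone (0% RPS), and 5 each received it with 2, 5, or 10% raw potato starch (RPS), a starch that largely escapes digestion before the large bowel. The libraries held from 20581013 to 35083751 counts, and each mouse gave 1 library.

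Apolipoprotein L proteins are named after a human serum protein that rides on high-density lipoprotein and helps to kill trypanosomes. Most members of the family lack a secretion signal and stay inside the cell, where they carry helical stretches of the kind that can associate with membranes. The mouse genes form a cluster of recent duplicates on chromosome 15, and several of them, Apol9a and Apol9b among them, are known as targets of interferon signalling. In the intestine Apol9a and Apol9b are known for binding to the surface of gut bacteria.

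On GRCm39, the build used by the authors, Apol7a (ENSMUSG00000010601) lies on the minus strand at chr15:77272419-77283435. Apol9a lies next to it at chr15:77287989-77295335 on the same strand, and Apol9b lies further along the cluster at chr15:77613239-77620585 on the plus strand. All are annotated as protein-coding. The sequences printed here come from that assembly with the GENCODE M39 annotation, and are shown because close copies decide how far a short read can be given to one gene.

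Reads of 50 bases were used, so the share of 50-base windows of each gene's transcripts that also occur in a transcript of another gene was computed. For Apol7a, 13.95% of windows were shared, or 469 of 3362. They were shared mainly with Apol7b, Apol7c, and Apol7e, which held 218, 215, and 204 of them. Apol9a and Apol9b shared 975 windows with each other, which was 16.5% of the windows of Apol9a and 51.0% of those of Apol9b, and neither shared a window with Apol7a. How the authors' counting treated reads that match several genes was not given in the sources used here, so part of the count of Apol7a cannot be told apart from that of its nearest copies.

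**Figure D1:**
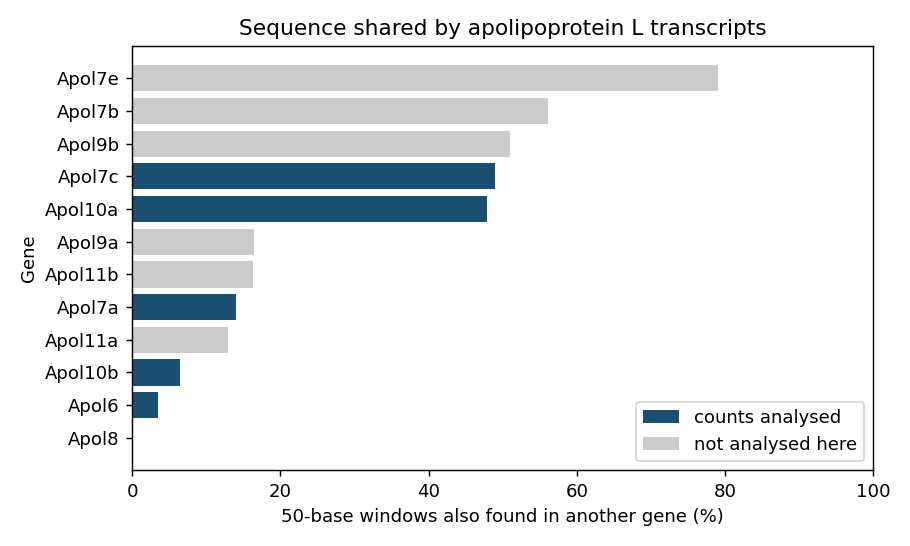
Bars show, for each apolipoprotein L gene on chromosome 15 (vertical axis), the percentage of its 50-base transcript windows that are also found in a transcript of another gene (horizontal axis). Dark bars mark the 5 genes whose counts were analysed, among which Apol7a, at 13.95%, sits below Apol7c and Apol10a and above Apol10b and Apol6.

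Over aligned coding bases, Apol7a was 90.8% identical to Apol7c, 89.3% to Apol7b, and 88.9% to Apol7e, but only 70.1% to Apol9a and 69.7% to Apol9b. The longest identical coding stretches all lay in exon 5 of the 5 exons of Apol7a. The stretch shared with Apol7e was 143 bases long (chr15:77273671-77273813, minus strand) and its first 134 bases are also found in Apol7b. That shared with Apol7c was 107 bases long (chr15:77273815-77273921, minus strand). The longest stretch shared with Apol9a or Apol9b was 20 bases. The 2 long stretches are given 5′ to 3′ in the direction of Apol7a, and every base in them is identical between the genes named.
Apol7a and Apol7e: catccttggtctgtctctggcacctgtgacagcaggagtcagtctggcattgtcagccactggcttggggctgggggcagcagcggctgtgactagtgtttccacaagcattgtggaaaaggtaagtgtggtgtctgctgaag
Apol7a and Apol7c: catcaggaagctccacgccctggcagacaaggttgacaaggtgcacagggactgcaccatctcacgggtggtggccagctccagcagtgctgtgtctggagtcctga
A read that falls wholly within either run is the same for both genes.

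Promoters were searched, from 250 bases before to 50 after an annotated start and on both strands, for GAAANNGAAA, the core of the interferon-stimulated response element (ISRE), and for TTCNNNGAA, the core of the gamma-activated site (GAS). The ISRE letters were present in 3.44% of the promoters of all genes in the table, and the GAS letters in 7.26%. Of the promoters of 35 interferon-responsive genes (a list described below), 51.4% held the ISRE letters. Among the 12 apolipoprotein L genes of chromosome 15, the promoter of the main transcript held them in 8, including Apol9a and Apol9b, and that of Apol7a did not. Apol7a has 4 annotated starts, and the ISRE letters were found at 1 of them (77280658) and the GAS letters at another, the most upstream (77283435). Neither was at the start of its main transcript. The shares above were counted at 1 start per gene, that of the main transcript, so they are no background for a search of 4 starts. The matches are shown with 5 bases on each side, 5′ to 3′ in the direction of each gene, with the matching letters in capitals, and matches in Apol7c, Apol9a, and Apol9b are overlapping pairs.
Apol7a, from chr15:77280605-77280624: ccaggGAAACAGAAAactgt
Apol7c, from chr15:77417550-77417575: ggggcTTTCTCTTTCCTTTTCtgctt
Apol9a, from chr15:77295319-77295344: gagacTTTCAGTTTCCATTTCccagt
Apol9b, from chr15:77613230-77613255: gagacTTTCAGTTTCCATTTCccagt
Apol10a, from chr15:77361191-77361210: ttttcTTTCACTTTCatgca
The runs of Apol9a and Apol9b are the same, and that of Apol7a differs from them. The Apol7a match lies after the start, and the Apol9a run spans its start. A match is only a run of letters, and its use in these mice was not measured.

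Apol7a was higher with more starch in the diet. Values are normalised counts, which are counts divided by the DESeq2 size factor of the library. In the 0% RPS mice Apol7a was at 253, 577, 193, 305, and 242 normalised counts, with a mean of 313.9 ± 152 (SD, n = 5). In the 2% RPS mice it was at 508, 317, 642, 313, and 345, with a mean of 425 ± 145 (SD, n = 5). Both groups were spread widely, with the mouse at 577 in the 0% group and those at 508 and 642 in the 2% group standing above the rest.

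In the 5% RPS mice Apol7a was at 549, 580, 557, 482, and 490 normalised counts, with a mean of 531 ± 43.2 (SD, n = 5). In the 10% RPS mice it was at 748.1, 724.8, 685, 754, and 574, with a mean of 697 ± 74.0 (SD, n = 5). These groups were tighter, with a coefficient of variation of 8.13% and 10.6% against 48.5% at 0% RPS and 34.1% at 2% RPS. The order of the means was that of the dose, and each diet overlapped the next one. The groups fed 0% and 10% RPS overlapped by a single mouse each, at 577 and 574, and the other 0% mice were at 305 or less.

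**Figure D2:**
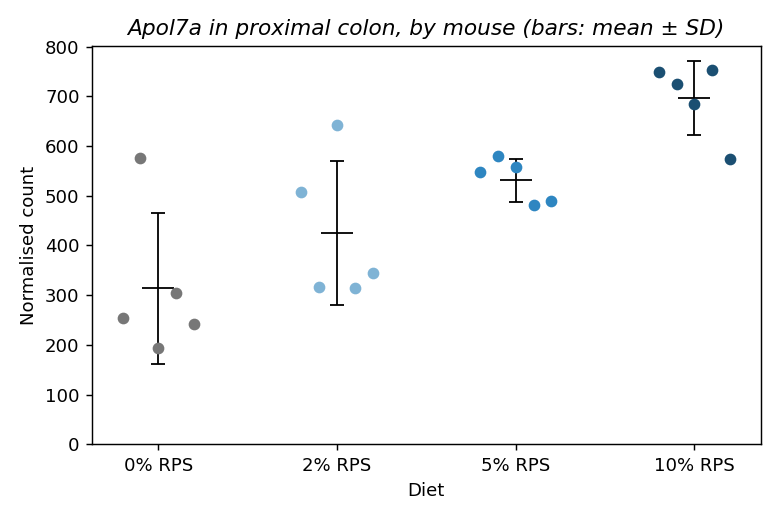
Each point is the normalised count of Apol7a (vertical axis) in 1 mouse, grouped by the percentage of raw potato starch in the diet (horizontal axis), and bars show the mean and SD of 5 mice. The mean goes from 313.9 at 0% RPS to 697 at 10% RPS, with 1 mouse at 0% RPS standing at 577.

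Relative to 0% RPS, the fitted log2 fold change of Apol7a was 0.44 ± 0.24 (SE) at 2% RPS, 0.76 ± 0.24 at 5% RPS, and 1.15 ± 0.24 at 10% RPS. These are 1.36-fold, 1.69-fold, and 2.22-fold levels. Between starch groups it was 0.32 ± 0.24 for 5% against 2%, 0.39 ± 0.23 for 10% against 5%, and 0.71 ± 0.23 for 10% against 2%. With the thresholds used in the study (DESeq2 adjusted p of 0.05 or less and at least 1.5-fold), Apol7a was past them at 10% RPS and not at 2% or 5% RPS. The share of all 12561 tested genes past them was 0.0239% at 2% RPS, 0.438% at 5%, and 0.9% at 10%, and since the gene was chosen with this comparison known, nothing is read from its place among them. With edgeR Apol7a was likewise past them only at 10% RPS, where the share of genes was 0.323%, against 0.0566% at 5% RPS and 0% at 2% RPS (0 genes called, with 1000 of 12366 at an unadjusted p under 0.05 by edgeR and 3 genes called by DESeq2).

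Including 0% RPS replicate 2 made these differences smaller. Without 0% RPS replicate 2, the log2 fold change was 0.78 at 2% RPS, 1.10 at 5%, and 1.49 at 10%, and Apol7a was then past the thresholds in all 3 contrasts. Leaving out any other single library kept it between 0.24 and 0.53 at 2% RPS, between 0.63 and 0.79 at 5%, and between 1.02 and 1.21 at 10%. Over the 10 fits for each contrast that left out 1 library, it was past the thresholds in 10 at 10% RPS, and only in the fit without 0% RPS replicate 2 at 5% and at 2%. The gene was chosen with its diet results known, so these counts describe dependence on single libraries and are no test.

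**Figure D3:**
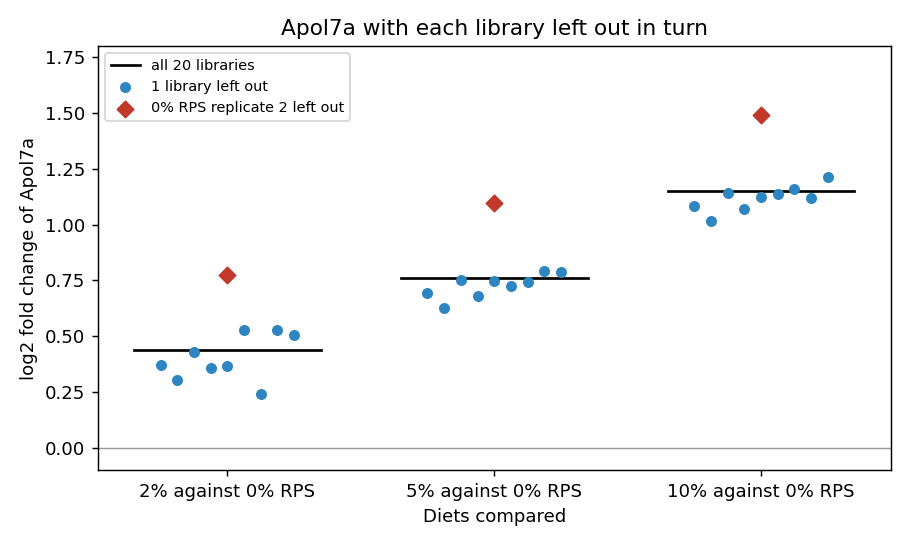
The log2 fold change of Apol7a (vertical axis) is plotted for 3 diet contrasts (horizontal axis) with all 20 libraries (lines) and with single libraries of the compared diets left out (points). Leaving out 0% RPS replicate 2 (diamonds) gave the highest value in each contrast, up to 1.49 at 10% RPS.

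The PC segment holds mucosa and muscle, and in such bulk RNA more cells of a type and more RNA per cell cannot be told apart. Summed over 8 epithelial markers (Epcam, Cdh1, Krt20, Car1, Slc26a3, Aqp8, Guca2a, and Muc2), normalised counts ranged from 730313 to 880826 at 0% RPS, 776775 to 1074605 at 2%, 952664 to 1037083 at 5%, and 927224 to 1367047 at 10%. None of the 8 passed the test in any contrast with 0% RPS, although 6 of 8 had a higher mean at each starch level, and their part in the difference of Apol7a was not tested. Summed over 6 smooth muscle markers (Myh11, Acta2, Des, Cnn1, Tagln, and Actg2), the range was 121326 to 268552 at 0% RPS, 110190 to 237495 at 2%, 110528 to 171625 at 5%, and 124763 to 211476 at 10%. A higher mean than at 0% RPS was found for 1 of 6 at 2% RPS and 0 of 6 at 5% and 10%, with median log2 fold changes of -0.06, -0.33, and -0.20, and none passed the test. With the smooth muscle score as a covariate, the log2 fold change of Apol7a was 0.53 at 2% RPS, 1.01 at 5%, and 1.35 at 10%. Whether muscle content has a part in the difference was not tested beyond this fit. No marker of the epithelium or muscle was at 0 in all libraries.

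The mouse that stood apart for Apol7a also ranked first of 20 for other markers. In 0% RPS replicate 2, the sum over 4 leukocyte markers was 9709, against a lowest value of 2739 among the 0% mice and at most 5327 in any starch-fed mouse. Its sum over 4 vascular endothelial markers, 3635, and its smooth muscle sum, 268552, were the highest of the 20 as well. Of the 4 endothelial markers 0, 0, and 1 had a higher mean than at 0% RPS at 2, 5, and 10% RPS, and none was called. Their part in its Apol7a level was not tested.

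The other apolipoprotein L genes were not past the thresholds on any diet. None of the 4 was called at 2, 5, or 10% RPS by DESeq2 or edgeR, and 0 of 4 had an unadjusted p under 0.05 with either tool. Of all genes, DESeq2 called 0.0239%, 0.438%, and 0.9% at 2, 5, and 10% RPS, and edgeR 0%, 0.0566%, and 0.323%. At 2% RPS 1093 of 12561 genes had an unadjusted p under 0.05 by DESeq2. Beside these shares, 0 of 4 does not set the relatives apart. The median log2 fold change of the 4 was 0.02 at 2% RPS, 0.03 at 5%, and -0.01 at 10%, beside a median over all genes of -0.01, -0.01, and 0. The difference between Apol7a and any of them was not tested.

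Apol7c, the closest copy of Apol7a by coding identity, was at 98.7, 455, 15.5, 26.3, and 41.5 normalised counts in the 0% RPS mice. It was at 76.6, 53.9, 36.2, 103, and 33.5 in the 2% mice, and at 75.4, 33.0, 81.6, 80.7, and 67.2 in the 5% mice. In the 10% mice it was at 58.4, 46.9, 137, 57.2, and 85.0. The high value was in 0% RPS replicate 2, the mouse that was also high for Apol7a, and all of the other values overlapped between diets. The log2 fold change of Apol7c, -0.73 ± 0.68 (SE) at 10% RPS, had an adjusted p of 0.58 (DESeq2). Its negative sign comes from 0% RPS replicate 2. The median of Apol7c was 41.5 normalised counts at 0% RPS, against 53.9, 75.4, and 58.4 at 2, 5, and 10% RPS. A fold change of Apol7c without that mouse is not given here.

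Apol10a, the most abundant apolipoprotein L gene of the table, had a mean of 13726 ± 4828 normalised counts (SD, n = 5) at 0% RPS, 14356 ± 2411 at 2%, 16739 ± 3653 at 5%, and 14662 ± 5157 at 10%. Its log2 fold change at 10% RPS was 0.10 ± 0.23 (SE), with an interval from -0.35 to 0.55 and an adjusted p of 0.85 (DESeq2). Of its 50-base windows 47.9% were shared with other transcripts, mainly with the gene model Gm62754, beside 48.9% of those of Apol7c. Apol10b had a mean of 65.7 ± 5.50 (SD, n = 5) at 0% RPS and 71.9 ± 19.8 at 10%, and a log2 fold change of 0.12 ± 0.20 (SE) with an adjusted p of 0.77 (DESeq2). Apol6, which lies at the far end of the cluster, had a mean of 795 ± 136 (SD, n = 5) at 0% RPS and 737 ± 119 at 10%, and a log2 fold change of -0.11 ± 0.14 (SE) with an adjusted p of 0.71 (DESeq2).

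**Figure D4:**
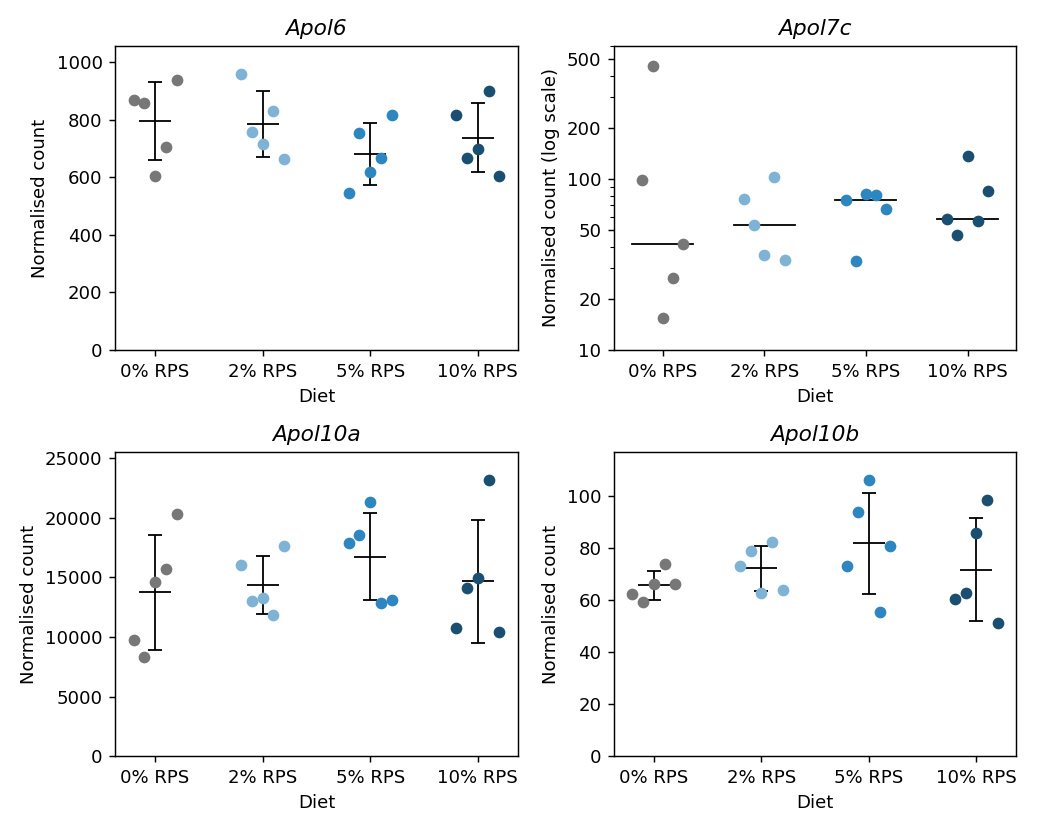
Each point is 1 mouse and the vertical axes give normalised counts of Apol6, Apol7c, Apol10a, and Apol10b by diet (horizontal axes); the axis of Apol7c is logarithmic. Bars show the mean and SD of 5 mice, except for Apol7c, where lines show the median, and the 455 normalised counts of 1 mouse at 0% RPS stand above all others of Apol7c.

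Per kilobase of annotated exon, Apol7a had a mean of 148 normalised counts over all mice, which put it at the 54.5th percentile of the table. On that scale the level of Apol10a was 33.1-fold that of Apol7a over all mice. The place of Apol7a depended on the diet. At 0% RPS its mean level per kilobase, 94.5, was 0.86-fold that of Apol6, and it was 1.18-fold, 1.70-fold, and 2.06-fold that of Apol6 at 2, 5, and 10% RPS. Its level per kilobase was 1.53-fold that of Apol7c at 0% RPS, where 1 mouse was high for Apol7c, and 5.62-fold at 10% RPS. It was 4.92-fold that of Apol10b at 0% RPS and 9.99-fold at 10% RPS.

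Pooled over the diets, Apol7a varied more between mice on one diet than most genes. This spread came mainly from the 0% and 2% RPS groups, with a coefficient of variation of 48.5% and 34.1%. It was 8.13% at 5% RPS and 10.6% at 10% RPS, and the comparison with other genes was not made diet by diet. With the diet means removed, the SD of its log2 normalised count was 0.39, against a median of 0.16 among 4646 genes of similar level, which put it at the 95.5th percentile of those genes. Without 0% RPS replicate 2 the SD was 0.29, at the 90.5th percentile. The same SD was 1.08 for Apol7c, 0.40 for Apol10a, 0.28 for Apol10b, and 0.23 for Apol6.

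Type I and III interferons bind receptors on the cell surface and switch on antiviral genes, of which Apol9a and Apol9b are known members. Of a list of 40 such genes, 35 were measured, and Apol7a was not among them. The list was chosen with earlier results of these data known, so its calls are not independent of those results. The authors already report Irf7, Zbp1, and Ifit1 as higher in the PC at 10% RPS. At 2% RPS 0 of 35 were called by DESeq2 (2 at an unadjusted p under 0.05; edgeR called 0). At 5% RPS 1 rose, and at 10% RPS 3 rose, and none fell, beside 0.438% and 0.9% of all genes called in either direction. With edgeR 0 of 35 were called at 5% RPS (8 at an unadjusted p under 0.05) and 1, Irf7, at 10% RPS. At 10% RPS 30 of 35 had a higher mean than at 0% RPS, with a median log2 fold change of 0.20 beside 0 for all genes, and at 5% RPS 27 of 35 did, with a median of 0.12.

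Irf7, the transcription factor that amplifies the interferon response, rose from 2285 to 5356 normalised counts at 10% RPS, a log2 fold change of 1.23 ± 0.20 (SE, DESeq2 adjusted p = 1.21e-06), and was called by edgeR and in 10 of 10 fits without 1 library. Zbp1, a sensor of Z-form nucleic acid that can start cell death, rose by a log2 fold change of 1.08 ± 0.29 at 5% RPS (DESeq2 adjusted p = 0.021) and 1.05 ± 0.29 at 10% RPS (DESeq2 adjusted p = 0.014). It was not called by edgeR (adjusted p = 0.13 and 0.079), and was called in 5 and 7 of 10 fits without 1 library. Ifit1, which binds viral RNA lacking cap methylation, rose by 0.67 ± 0.21 at 10% RPS (DESeq2 adjusted p = 0.043), was not called by edgeR (adjusted p = 0.11), and was called in 3 of 10 fits without 1 library. Beside these, Apol7a had 1.15 ± 0.24 (SE) at 10% RPS, and the median of the 35 measured genes of the list was 0.20. The errors overlap, so Apol7a cannot be ranked against Irf7 or Zbp1, and the differences between them were not tested.

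The most abundant genes of the list, with Irf7, were Lgals3bp, Samd9l, Ifit1bl1, and Ifih1. Lgals3bp, a secreted glycoprotein, had a log2 fold change of 0.36 ± 0.11 (SE) at 10% RPS, which passed the adjusted p (0.025) but not the 1.5-fold threshold. Samd9l had 0.17 ± 0.12 (adjusted p = 0.43), Ifit1bl1 had 0.73 ± 0.39 (adjusted p = 0.28), and Ifih1, the sensor MDA5, had 0.24 ± 0.08 (adjusted p = 0.067), all by DESeq2.

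The number of called interferon genes depended on single libraries. Without 0% RPS replicate 2 it was 5 at 10% RPS (Bst2, Irf7, Mx1, Oasl1, and Zbp1), and it was 1, Irf7 alone, without 0% RPS replicate 5, 10% RPS replicate 3, or 10% RPS replicate 5. At 5% RPS it was 2 without 0% RPS replicate 2 or replicate 3, and 0 without 0% RPS replicate 4 or 5 or 5% RPS replicate 1, 2, or 3.

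Covariation between mice on the same diet, which does not use the differences between diets, was then measured for Apol7a. A score was the mean log2(normalised count + 1) over a list, the diet means were removed, and 7 relations were tested with permutation within diets. With the interferon score, Apol7a had a Pearson r of 0.44 (n = 20, permutation p = 0.079, adjusted p = 0.28) and a Spearman rho of 0.43 (permutation p = 0.084, adjusted p = 0.49). Without the 2 mice farthest from the median of the score r was 0.44, and without 0% RPS replicate 2 it was 0.31. None of the 7 relations passed after adjustment.

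With the smooth muscle score, Apol7a had an r of 0.58 (n = 20, permutation p = 0.049, adjusted p = 0.28) and a rho of 0.32 (permutation p = 0.21, adjusted p = 0.49). It was 0.37 without the 2 mice farthest from the median of the score and 0.34 without 0% RPS replicate 2. With the epithelial score r was 0.31 (permutation p = 0.36, adjusted p = 0.50), and -0.10 without that mouse. With Apol7c r was 0.47 (permutation p = 0.20, adjusted p = 0.47) with a rho of 0.05, and r was -0.13 without that mouse. With Apol6, Apol10a, and Apol10b r was 0.26, -0.17, and -0.03 (permutation p = 0.34, 0.60, and 0.83; adjusted p = 0.50, 0.70, and 0.83).

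Among 11533 genes that averaged 100 normalised counts or more, those most like Apol7a by this within-diet r over 20 libraries included Gm43737 (0.84), Klhl25 (0.83), Mis12 (0.81), and Rabgef1 (0.81). Without 0% RPS replicate 2 the r of these 4 ranged from 0.65 to 0.70. These values are a description of the libraries, which share their depth and tissue makeup.

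The nearest measured genes on each side of the cluster, and the 1 inside its span, were not past the thresholds. None of Commd5, Rpl8, 1110038F14Rik, Rbfox2, Myh9, Gm22107, and Txn2 was called in a contrast with 0% RPS by DESeq2, in which 0, 0, and 1 of 7 had an unadjusted p under 0.05 at 2, 5, and 10% RPS. Of all genes, DESeq2 called 0.0239%, 0.438%, and 0.9% in these contrasts, so the lack of calls does not set the neighbours apart. Gm22107, at a mean of 1.08 normalised counts, was too low to be informative and was not tested by edgeR, which called none of the other 6. At 10% RPS DESeq2 gave no adjusted p for Gm22107 or Commd5, the latter at a mean of 10.2 normalised counts. At 10% RPS the log2 fold change of Rbfox2, the splicing factor inside the span, was -0.11 ± 0.09 (SE, DESeq2 adjusted p = 0.48), and that of Myh9, the nonmuscle myosin gene beyond Apol8, was 0.04 ± 0.08 (adjusted p = 0.83).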

How the data were processed

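The authors removed bases below Q30, aligned single-end reads of 50 bases from stranded libraries to GRCm39, and counted them in CLC Genomics Workbench (20.01). The deposited values are raw counts per gene, and annotation, use of strand, and multi-mapped reads are not given in the sources used here. Each p-value measures the spread between mice, each giving 1 library.

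DESeq2 (1.42.0) in R (4.3.3) with the thresholds of the study was fitted to all 20 libraries with diet as the only term. Benjamini-Hochberg adjustment was made over all genes. The fit was also run on counts simulated from its own fitted model, which checks the code and not how the model suits these mice. edgeR (4.0.16) quasi-likelihood tests, TMM factors, a low-count filter (10 counts in 5 libraries), a smooth muscle covariate, and fits without single libraries were alternatives. Correlations used log2(normalised count + 1) and 100000 permutations; 12 relations were planned, and with Apol9a and Apol9b not analysed, 4 with other family members replaced those between members. Members and lists were chosen with earlier results of these data known. Named genes were the members, all measured relatives, the 5 most abundant and any called genes of the interferon list, the 5 genes most like Apol7a (1 is not reported here), and the nearest 3 measured genes on each side; Rbfox2 was added after its values were seen. GENCODE M39 gave positions for 12682 of 12701 genes.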

Additional observations from a re-analysis of the deposited data

Results flagged for a closer look

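In 40 sets of 5 mice (the 5 apolipoprotein L genes and 5 marker sums in each diet), the highest and lowest values were set against the rest. One stood apart. Apol7c in 0% RPS replicate 2, at 455 normalised counts, was separated from the next mouse by a share of 0.81 of the whole range of its diet, above the limit of 0.71 for 5 samples. Chance alone separates a sample this way in about 1 in 20 sets. In the same mouse Apol7a, at 577, was separated by 0.708 of its range, which is just under that limit.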

How the results depend on the processing

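Leaving out single libraries gave a log2 fold change of Apol7a from 0.24 to 0.78 at 2% RPS, 0.63 to 1.10 at 5%, and 1.02 to 1.49 at 10%, with the highest value in each without 0% RPS replicate 2. Shrinkage brought it to 0.32 at 5% and 0.51 at 10% RPS, as its construction does. Genes called over the whole table ranged from 1 to 10 at 2% RPS, 24 to 104 at 5%, and 62 to 201 at 10% as single libraries were left out, against 3, 55, and 113 with all. edgeR called 0, 7, and 40. The smooth muscle covariate gave 6 at 2% RPS, and leaving out the 3 libraries with label numbers outside the run of the others gave 67 at 10%. Those libraries were 2% RPS replicate 5 and 10% RPS replicates 4 and 5, and none was from the 0% or 5% RPS groups. That fit therefore had fewer mice at 10% RPS. Interferon genes called ranged from 0 to 2 at 5% RPS and 1 to 5 at 10% as single libraries were left out, against 1 and 3. They were 2 at 5% with only the 2 diets compared, 0 at 5% and 1 at 10% with edgeR, 5 at 10% with the smooth muscle covariate, and 1 at 10% without the 3 libraries. The cause of these changes was not tested. With diet means left in, r of Apol7a with the interferon score was 0.66 (permutation adjusted p = 0.011), which includes the diet differences by construction, and r turned to -0.062 for Apol6, 0.029 for Apol10a, and 0.13 for Apol10b. With single libraries left out, r ranged from -0.10 to 0.44 for the epithelial score, -0.13 to 0.62 for Apol7c, -0.25 to 0.22 for Apol10a, and -0.13 to 0.092 for Apol10b. The other alternatives, 313 of 363 in all, were classed as unchanged. For log2 fold changes and r, this class kept the direction of the main value. For counts of called genes it allowed changes, such as 55 to 75 at 5% RPS without 0% RPS replicate 1. Counts that stayed at 0, as for the other apolipoprotein L genes, were included and say nothing about stability. The class also held the log2 fold changes of Apol7a without 0% RPS replicate 2 at 2% and 5% RPS. Those rose from 0.44 to 0.78 and from 0.76 to 1.10, and Apol7a crossed the thresholds there. No paired analysis was possible because replicates were numbered in order within each diet, and a number ties no mice together. Apol7a had from 212 to 865 raw counts in each library, and each diet had 5 mice.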

Other observations

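The gene whose within-diet pattern was most opposite to that of Apol7a, out of 11533, was Nr1d1, which encodes the clock repressor Rev-erb alpha. Its r with Apol7a was -0.84 over 20 libraries (-0.66 without 0% RPS replicate 2), with a rho of -0.79 over all 20, and it ranged from 1768 to 4647 normalised counts. Genes of the circadian clock were therefore listed after this was seen, and 15 of 16 were measured. A negative r was found for 9 of them, among them Nr1d2 (-0.61), Dbp (-0.61), Tef (-0.56), Ciart (-0.55), Cry2 (-0.52), and Per3 (-0.49). The other 6 had a positive r, among them Clock (0.71), Cry1 (0.55), and Bmal1 (0.49). Without 0% RPS replicate 2 these were smaller, at -0.34 for Nr1d2, -0.40 for Dbp, 0.42 for Clock, and 0.24 for Bmal1. The correlations are a description and were not tested, and collection times of the mice were not used here.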
